A study of Drosophila melanogaster with 13 samples.

Results

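Translation factor and tRNA synthetase genes encode the machinery that turns mRNA into protein. The members described here are the CREB/CRTC-binding regions whose assigned gene symbol starts with eIF, eIf, Ef1, Ef2, eRF or Aats-. This rule took 18 of the 4995 regions and 13 of the 2833 gene symbols. The rule reads no measured value, but it was chosen with earlier results of these data known. It was applied to regions that had already passed peak calling for CREB and CRTC. CREB is a transcription factor that binds DNA, and CRTC is a coactivator that joins it in the nucleus. Each region is a CRTC-binding site with a CREB-binding site at most 200 bp away.

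CREB and CRTC were each immunoprecipitated, with lab-made antibodies, from purified mushroom body (MB) nuclei of Drosophila, the MBs being brain structures needed for olfactory memory. All flies were of the strain labelled CS10, and a FLAG-tagged KASH protein, placed in the nuclear membrane under the MBp-LexA driver, was used to pull down the MB nuclei. For each protein, 3 libraries came from naive flies and 3 from flies 1 day after spaced training, in which an odour is paired repeatedly with electric shocks. Input DNA of naive flies gave 1 further library. Expression from this driver is uneven among the Kenyon cells of the MB, being low in those that form the α'/β' lobe. Binding lists hold no RNA measurement, and the tissue label could not be checked against marker expression.

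There was 1 deposited site list for each protein, and no value per library was at hand. The score, given by the authors' peak caller against input DNA, has no unit and ranks sites within 1 list. It has no SD or n here, so no difference between scores was tested. CRTC and CREB scores are each read only against scores of the same protein. The reference is all 4995 regions unless a whole list is named. The number of reads behind a region is unknown. Naive and spaced-trained flies are therefore not compared, because only the authors' own comparison columns hold that contrast and these were not used.

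Translation starts when the eIF4 factors bind the cap of an mRNA and unwind its leader, while eIF3, eIF2 and eIF1A prepare the small ribosomal subunit. The elongation factors then bring charged tRNAs and move the ribosome along, and the release factors end synthesis at a stop codon. The tRNA synthetases load amino acids onto their tRNAs. Spaced training is known to form a long-term memory that needs new protein synthesis.

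Regions of these genes mostly lay close to transcription start sites (TSSs), and their median scores were below those of all regions. Of the 18 regions, 15 (83.3%) lay within 500 bp of a TSS, against 63.8% of all regions, and 0 lay beyond 5 kb, against 8.43% of all regions. The median CRTC score was 3.08 in the 18 regions and 4.66 in all regions. The median score of the nearest CREB site was 3.29 in the 18 regions and 4.61 in all regions. The 95% interval of the median by order statistics was 2.47 to 5.10 for CRTC and 2.60 to 5.19 for CREB. Each interval included the median of all regions. The intervals take the 18 regions as independent, although some share a gene and only 17 distinct CREB sites stand behind them. Wider regions had higher median scores in both sets. Among regions at least 100 bp wide, the median CRTC score was 4.52 in 10 of the 18 regions and 6.15 in all 2810. These shares, medians and intervals are descriptions, and the differences were not tested.

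The 4 regions of the cap-binding apparatus belonged to eIF-4E and eIF-4a, with 2 each. eIF-4E encodes the protein that holds the mRNA cap. Its region at chr3L:9394975-9395129 of dm3 lay 70 bp upstream of the TSS and had a CRTC score of 7.00 and a CREB score of 8.84. Its other region, at chr3L:9394216-9394384, lay 520 bp downstream with a CRTC score of 3.95 and a CREB score of 4.59. The region upstream of the eIF-4E TSS thus had the higher score in each list. Between these regions lay 590 bp.

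eIF-4a encodes the RNA helicase that opens structure in mRNA leaders. The region at chr2L:5982437-5982601 covered the TSS of eIF-4a and had a CRTC score of 5.10 and a CREB score of 5.19. The region at chr2L:5983365-5983430 lay 771 bp downstream and had the lowest CRTC score of all 18 regions, 1.55, with a CREB score of 2.38. Of all regions, only 0.200% had a lower CRTC score than the latter. In both eIF-4E and eIF-4a, the region nearer to the TSS had the higher score. This order is not general. Over all regions the median CRTC score was 4.47 within 500 bp of a TSS and 5.02 beyond it. For the 18 regions these medians were 3.15 and 2.65.

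The eIF3 complex holds together the scanning small subunit. Its 3 members in the list, eIF3-S10, eIF3-S9 and eIF3-S8, are named eIF3a, eIF3b and eIF3c in RefSeq and are core subunits of the complex. Each had 1 region. The region of eIF3-S8 at chr2R:13553099-13553205 covered the TSS, that of eIF3-S10 at chr3R:259445-259526 lay 90 bp downstream, and that of eIF3-S9 at chr2R:13423840-13423936 lay 122 bp downstream. The CRTC scores were 3.15 at eIF3-S10, 2.49 at eIF3-S9 and 2.28 at eIF3-S8. All 3 were below the lower quartile of all regions, 3.17. The CREB score was 4.95 at eIF3-S10, above the median of all regions, but 2.44 at eIF3-S9 and 1.73 at eIF3-S8. The last was the lowest CREB score among the 18 regions.

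eIF-1A, a small factor that helps the ribosome scan for the start codon, stood above the eIF3 subunits. Its region at chr3R:14100785-14100935 lay 398 bp downstream of the TSS. The CRTC score there was 6.64, higher than in 69.1% of all regions, and the CREB score was 8.25, higher than in 76.1%.

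Elongation factors accounted for 6 regions in 5 genes, and all 6 lay within 500 bp of a TSS. Their CRTC scores ran from 1.73 to 3.79 and their CREB scores from 2.20 to 4.56. None of the 6 was above the median of all regions for either protein. The CREB score at Ef1alpha48D came close to it, being higher than in 49.2% of all regions. The class was therefore near its TSSs and below these medians throughout.

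Ef1alpha48D and Ef1alpha100E encode the paralogous forms of eEF1alpha, which carries charged tRNAs to the ribosome. The region of Ef1alpha48D at chr2R:7779580-7779663 covered the TSS and had a CRTC score of 3.47 and a CREB score of 4.56. Ef1alpha100E had 2 regions upstream of the TSS, at chr3R:27565196-27565328 (53 bp) and chr3R:27564910-27565062 (319 bp). Their CRTC scores were 2.60 and 3.00. Both were paired with the same CREB site, whose score was 2.70. The paralogues thus differed in the place and number of their regions, and the 3 CRTC scores all lay below the median of all regions.

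The other elongation factor genes had 1 region each. Ef2b, the gene of eEF2, which moves the ribosome by a codon, had its region at chr2L:21681996-21682076, 39 bp downstream of the TSS. The CRTC score of the Ef2b region was 2.46 and the CREB score was 3.60. Ef1gamma, a subunit of the exchange factor that recharges eEF1alpha with GTP, had its region 21 bp upstream, at chr3R:25045814-25045866. With 1.73 for CRTC and 2.20 for CREB, Ef1gamma was next to last among the 18 regions in each list. eIF-5A, named eEF5 in RefSeq, helps the ribosome form peptide bonds and had a region that covered the TSS at chr2R:19945294-19945386. The scores at eIF-5A were 3.79 for CRTC, the highest of the elongation factors, and 2.99 for CREB.

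eRF1 encodes the release factor that reads stop codons, and it had the most regions and the highest CRTC scores of the 13 genes. All 3 of its regions lay downstream of the TSS. The region at chr3L:20341636-20341776 lay 181 bp from it and had a CRTC score of 8.22 and a CREB score of 8.85. The region at chr3L:20341848-20341964 lay 393 bp from the TSS and had a CRTC score of 8.38 and a CREB score of 6.31. These neighbours were 71 bp apart, and they were the only 2 of the 18 regions above the upper quartile of CRTC scores, 7.54. At chr3L:20342562-20342662, 1107 bp from the TSS and the farthest of the 18 regions, the CRTC score was 2.65 and the CREB score was 2.60. The ranking of the first pair differed between the lists, since the CREB score was higher at the region closer to the TSS and the CRTC score was slightly higher at the next one.

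Aats-glupro was the only tRNA synthetase gene among the 13. It encodes a synthetase that loads both glutamate and proline, and is named GluProRS in RefSeq. Its region at chr3R:19784042-19784058 lay 54 bp downstream of the TSS and was the narrowest of the 18, at 17 bp. The CRTC score of 2.47 and the CREB score of 2.72 were higher than in 12.5% and 19.2% of all regions. The label of the gene group thus holds for translation factors, while synthetases were represented by 1 region.

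**Figure D1:**
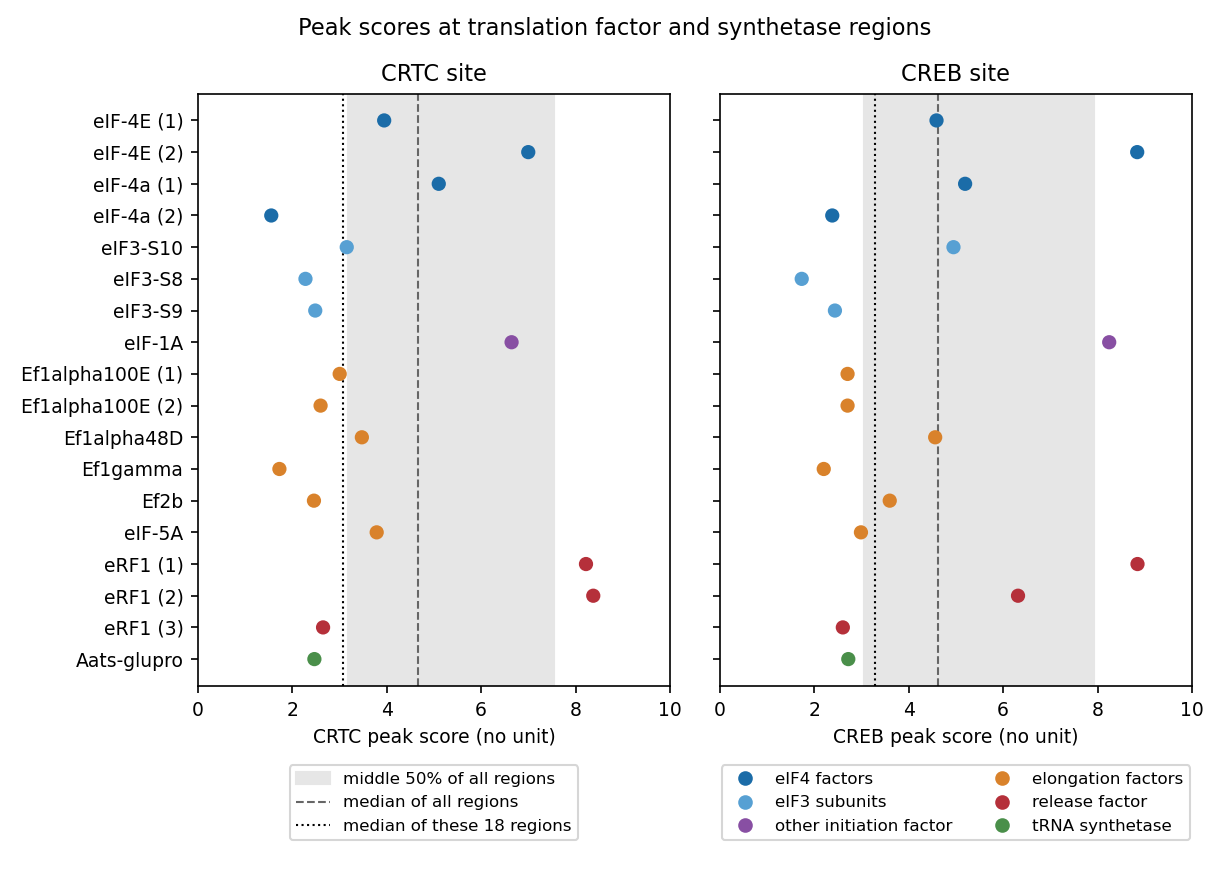
CRTC score of each of the 18 regions (left) and score of its nearest CREB site (right), with no unit, coloured by class; numbers in brackets order regions of a gene by position. Of the 18 regions, 13 had a CRTC score under 4, and the highest values belong to eRF1, eIF-4E and eIF-1A.

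Seen over all classes, CRTC scores of the 18 regions ran from 1.55 to 8.38 and false discovery rates from 0.000689 to 0.00899. The scores of 10 regions were below the lower quartile of all regions, where 25% of regions lie by definition. Scores of 5 regions were above the median of all regions, and they came from 4 genes, eRF1, eIF-4E, eIF-1A and eIF-4a. For CREB, 6 of the 18 regions were above the median. Regions that scored high for CRTC also scored high for CREB, with Spearman's rho of 0.89 over the 18 regions and 0.82 over all 4995. Both lists were made against the same input DNA, and the value is given as a description.

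When each gene was represented by its highest-scoring region, the median CRTC score was 3.15 over the 13 genes and 5.18 over all 2833. Of the 13 genes, 4 (30.8%) had at least 2 regions, which for so few genes is near the 39.3% of all genes. Cytosolic ribosomal protein genes, whose products form the ribosome itself, are the most similar group in the table. Their 39 regions in 36 genes had a median CRTC score of 2.46 and a median CREB score of 3.20. Of these ribosomal protein regions, 94.9% lay within 500 bp of a TSS. The translation factor regions lay between the ribosomal protein regions and all regions in each of these 3 values. Mitochondrial ribosomal protein genes had 6 regions in 3 genes, with 1 of the 6 within 500 bp of a TSS and a median CRTC score of 6.90. None of these differences was tested.

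By position, 4 of the 18 regions covered a TSS, 4 lay upstream and 10 lay downstream. Downstream regions made up 55.6% of the 18 and 37.1% of all regions. A TSS was covered by 22.2% of the 18 and by 21.0% of all regions, so these shares were near each other. Of all 4995 regions, 2092 lay upstream. The 4 genes with a covered TSS were eIF-4a, eIF3-S8, Ef1alpha48D and eIF-5A. All 3 regions farther than 500 bp from the TSS, 1 each of eIF-4E, eIF-4a and eRF1, were downstream and belonged to genes that had a region closer to the TSS as well. Each of the 13 genes therefore had at least 1 region within 500 bp. This was also usual elsewhere, since 2321 of the 2715 protein-coding genes with a region had one within 500 bp.

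**Figure D2:**
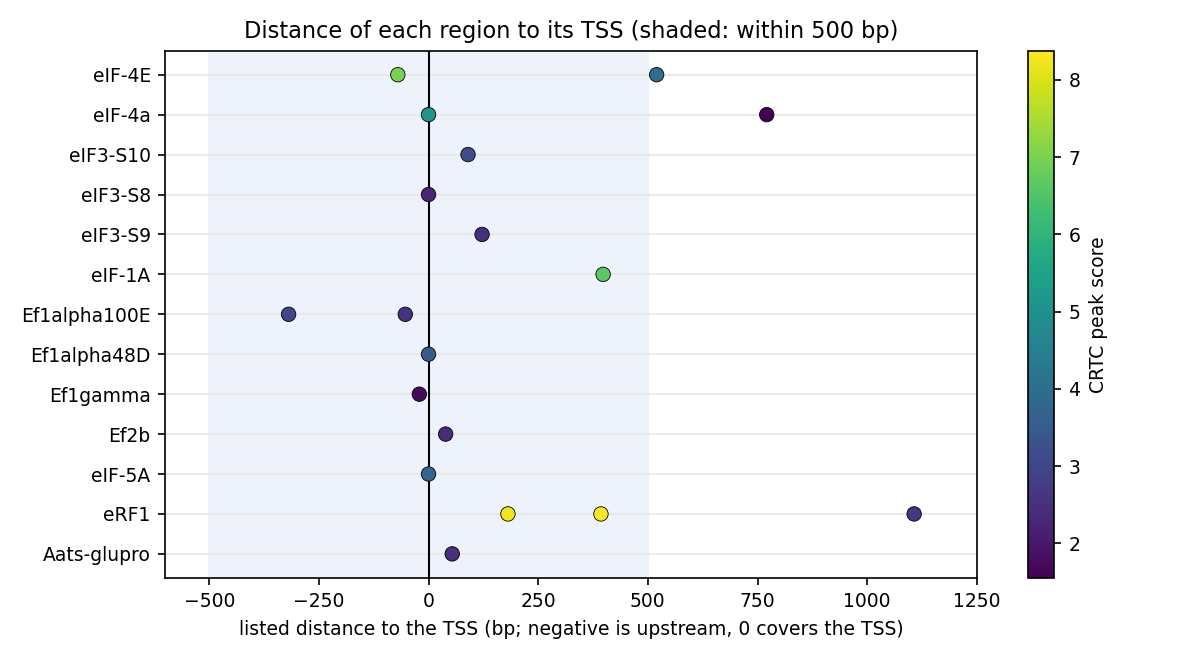
Listed distance in bp of each region to the TSS of its gene, with negative values upstream and 0 for a region that covers the TSS; each point is a region, coloured by CRTC score. The points cluster around the TSS, and the 3 points outside the shaded band are downstream at 520, 771 and 1107 bp.

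The table places regions of other genes close to 3 of the 18. How often this holds over all regions was not computed. Regions of chic, ERp60 and Patronin lay within 2 kb of those of eIF-4a, Ef1alpha48D and eIF3-S9. In RefSeq these are the adjacent protein-coding genes on 1 side of eIF-4a, Ef1alpha48D and eIF3-S9. The table assigns each region to 1 gene, so a region between neighbours can belong to either. eRF1 and eIF-1A overlap other protein-coding genes in RefSeq, CG5618 for eRF1 and CG14312 and CG7142 for eIF-1A.

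CREB and CRTC sites shared bases at 17 of the 18 regions (94.4%), against 90.7% of all regions, although closeness within 200 bp was all that the pairing required. A median of 80.9% of the region was shared, compared with 72.6% over all regions. The regions of Ef1alpha48D and eIF3-S10 lay wholly inside a CREB site. At those 17 regions the centres of both sites were less than 60 bp apart, with the smallest offset, 1.5 bp, at Ef1alpha48D. The exception was the region of Ef1alpha100E 319 bp upstream of the TSS. Its edge was 182 bp from the nearest CREB site, and that site overlapped the other Ef1alpha100E region by 85 bp. The 18 regions were paired with 17 distinct CREB sites. The median offset between centres was 20.5 bp, close to the 22.0 bp of all regions.

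**Figure D3:**
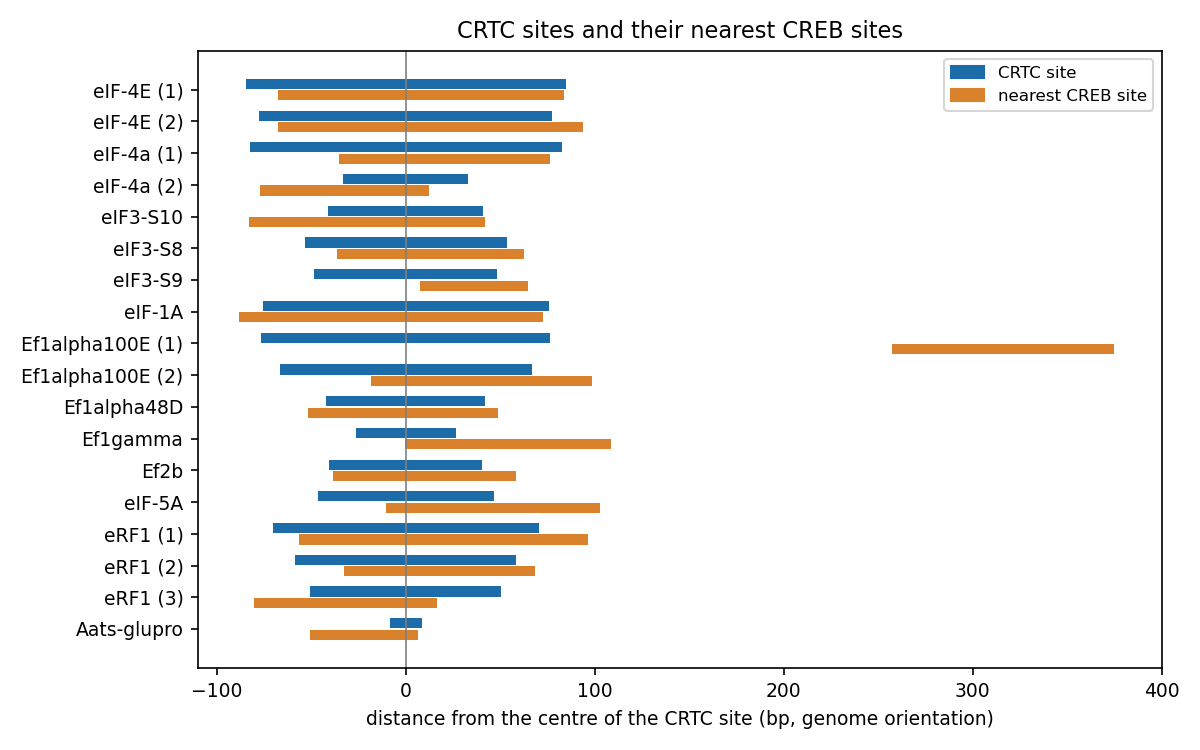
Extent of the CRTC site (blue) and of the nearest CREB site (orange) at each of the 18 regions, in bp from the centre of the CRTC site. The bars overlap in 17 rows, and the CREB bar of the first Ef1alpha100E region is set apart by 182 bp.

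Further sites without a partner were listed around the 18 regions. Within 5 kb of them lay 10 CREB sites with no CRTC site within 200 bp, with scores from 1.57 to 9.21 and a median of 2.24. Another 30 CREB sites in this range, those at the regions included, had a CRTC site within 200 bp. The matching share of the whole CREB list was not computed. Per the methods, the authors' read-density cut-off for calling a peak was lower for CREB than for CRTC. A site without a partner thus lacks a call, and absence of the other protein was not tested. The 10 CREB sites without a partner were nearest to eIF-4a, eIF-4E, eIF-5A, eIF3-S10, eIF-1A and Aats-glupro. CRTC sites without a CREB partner numbered 5, with scores from 2.02 to 2.86, around eIF-4a, Ef1alpha48D and eIF-5A. Another 28 CRTC sites in this range had a CREB partner. In the whole CRTC list, 4995 of 5990 sites had one, so sites without a partner are not particular to these genes. At eIF-5A, 2 such CRTC sites lay 276 and 328 bp from the region, and their CREB neighbour was 220 and 272 bp away, just outside the limit. A CREB site 350 bp from the upstream region of eIF-4E had a score of 2.47, against 8.84 for the CREB site at that region.

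To count genes without a region as well, the rule was applied to the symbols and synonyms of RefSeq. This gave 79 genes, of which 18 (22.8%) had a region, against 19.4% of all 13962 protein-coding genes. The 13 genes above were among them, and 5 were listed in the table under other names. Since neither share was tested, the group as a whole is only described as near the share of all genes.

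Classes of the 79 genes differed in coverage. These classes hold only genes that the name rule found, so they need not be complete families. Within the 79, a region was listed for 5 of 6 elongation factor genes, with Ef1beta (eEF1beta) as the one without. EfTuM (mEFTu1 in RefSeq), which had no region, is outside the 79. Among the initiation factors the count was 4 of 16 for eIF3, 3 of 13 for eIF4 and 1 of 7 for other factors. The genes of eIF2, which brings the initiator tRNA, and of its exchange factor eIF2B had 0 of 8. eRF1 had regions and eRF3, its GTPase partner, had none. Of the 22 synthetase genes found by a name starting with Aats-, 1 had a region. It was 1 of the 15 with an ordinary name, and 0 of the 7 with a mitochondrial name had one. Synthetase genes without such a name were not looked up. For cytosolic ribosomal protein genes the count was 35 of 92 (38.0%), and for mitochondrial ones 3 of 73 (4.11%). A gene without a region can still lie beside a region assigned to its neighbour.

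**Figure D4:**
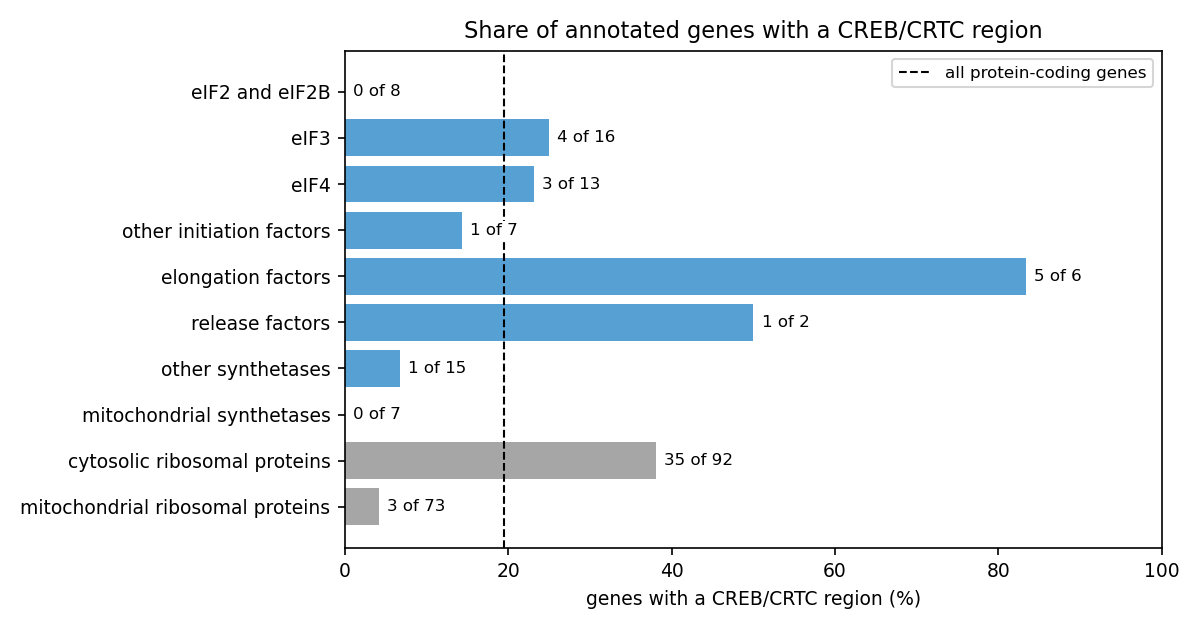
Share of RefSeq genes with at least 1 CREB/CRTC region by class, in percent, with counts beside the bars and a dashed line at 19.4%, the share of all protein-coding genes. Translation factor and synthetase classes hold only genes found by the name rule and need not be complete families. Elongation factors stand highest with 5 of 6, and eIF2 with eIF2B and the mitochondrial synthetases stand at 0.

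Of the 5 genes under other names, Tango7 (eIF3m) and Rbp2 (eIF4H1) are initiation factor genes by their RefSeq symbols. Tango7 had a region 250 bp downstream of the TSS with a CRTC score of 2.96 and a CREB score of 2.27. At Rbp2 the region lay 28 bp downstream, its CRTC score was 2.71, and its CREB site, with a score of 3.17, was next to it without sharing a base. Thor, exba and AGO2 entered the list through synonyms and are not initiation factors proper. Thor encodes 4E-BP, the inhibitor that binds eIF4E. Its region at chr2L:3478266-3478420 lay 13 bp upstream of the TSS and had a CRTC score of 11.4 and a CREB score of 15.5, above any of the 18 regions. exba had 3 regions with CRTC scores from 1.84 to 3.75, and AGO2, an RNA interference factor, had 1 region with a CRTC score of 2.73.

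A further list of 22 names was put together by hand, with earlier results known, for other genes related to translation. Of these names, 5 (Elf, Int6, Trip1, Adam and Thor) stand or may stand for genes among the 79, and Tor is ambiguous in RefSeq. Of the remaining 16, 7 had a region (43.8%), against 19.4% of all protein-coding genes, and this share depends on which names were listed. Lk6, the kinase that phosphorylates eIF4E, had 6 regions, of which the one over the TSS had a CRTC score of 9.06 and a CREB score of 10.3. The other Lk6 regions scored from 2.04 to 6.50 for CRTC. bel, an RNA helicase gene, had 3 regions with CRTC scores of 11.3, 5.71 and 1.73, and the strongest lay 1446 bp downstream of the TSS. pAbp, which encodes the poly(A)-binding protein, had a region 4 bp downstream with a CRTC score of 6.40 and a CREB score of 7.89. The highest CRTC scores at poly (5.93, Elp6 in RefSeq) and NAT1 (4.38) were lower, and those at S6k (2.54) and Rack1 (2.54) lower again. Thor and Lk6, whose products act on eIF4E, thus had higher highest scores in each list than eIF-4E itself. These genes do not stand for the regulators of eIF4E as a group. The eIF2alpha kinase genes PEK and Gcn2 had no region, nor did mxt, Paip2, pelo, HBS1, nero, EfTuM or Su(var)3-9, which encodes a histone methyltransferase and is not a translation gene.

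Chromosome arm 3R held 6 of the 18 regions, 3L held 5, 2R held 4 and 2L held 3. None was on chromosome X, which carried 16.7% of all regions. Of the 79 genes, 11 are on chromosome X, and Rbp2 was the only one of these with a region.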

How the data were processed

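Chromatin of MB nuclei was measured by paired-end ChIP-seq on a MiSeq. Per the methods, the authors aligned these reads to dm3 and discarded distant pairs and poorly mapped reads. Sites were the overlap of peaks from the PICS and ERD algorithms (input DNA as control) found in at least 2 of 3 replicates. ERD peaks also had to pass a read-density cut-off, which was set lower for CREB than for CRTC. The authors report the 5990 CRTC sites as part of their look at binding 1 day after spaced training. Their methods do not state outright which condition's replicates gave the calls, and the site lists name no sample. The score and the false discovery rate (a q-value) of each site are the authors' deposited values. The signed distance to the TSS and the gene symbol of each region are deposited by the authors as well. The authors' deposited table also holds a ratio (fold change) and an adjusted p-value of spaced-trained against naive flies, which the authors computed with DESeq2 from reads in 1 kb windows. These columns of the authors' own comparison were not used.

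Each region was joined to the CRTC site of the same coordinates (4995 of 4995) and to the CREB site with the nearest edge. Widths count both end positions. Python 3.11.15 was used with pandas 2.3.3, NumPy 2.4.6, SciPy 1.17.1 and Matplotlib 3.10.9. The nearest-site search was tested on simulated sites. Gene names were matched to RefSeq (Release 6, names and neighbours only) by symbol, locus tag or unambiguous synonym, with 41 table symbols ambiguous and 10 unmatched. All 13 member symbols matched. Classes were assigned by RefSeq symbol, with mitochondrial synthetases being those whose symbol ends in -m.

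Every member gene was to be named in its class. Full values were to be given for the 5 regions with the highest and the 5 with the lowest CRTC score, the 5 with the highest CREB score, genes with several regions, regions over 500 bp from the TSS and regions sharing no base with a CREB site; here all 18 regions are given. Genes other than members that are named come from the lists of 79 and 22 genes or were chosen after their values were seen. The members and lists were chosen with earlier results of these data known. Alternatives covered distances, widths, scores, units of counting and name matching. Promoter motifs were not analysed, because no sequence was used here.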

Additional observations from a re-analysis of the deposited data

Results flagged for a closer look

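A CREB site on chromosome 2L at 5981926 to 5982067 of dm3 lies outside the CREB/CRTC regions, because no CRTC site was within 200 bp. It is 370 bp from the region that covers the TSS of eIF-4a. Its score of 9.21 was higher than in 86.0% of the whole CREB list. The CREB site at that region had a lower score, 5.19, which was higher than in 68.6% of the same list. The unpaired site was called above input DNA, and no value of it per library or per condition was at hand. Because the read-density cut-off was higher for CRTC than for CREB, the missing CRTC call does not show absence of CRTC.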

How the results depend on the processing

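No paired analysis was possible because the lists carry no values per replicate, and for the same reason no replicate could be left out. The promoter motif alternatives were not run, as no sequence was used here. Of the alternatives that were run, those for distance to the TSS gave 12 regions at 200 bp and 17 at 1000 bp. Among the 10 regions at least 100 bp wide, 8 lay within 500 bp of a TSS and the median CRTC score was 4.52. With the higher-scoring 50% of the CREB sites, 8 of the 18 regions shared bases with one, and the median CREB score of the sites within 200 bp was 5.75 over 8 regions. With the higher-scoring 50% of the CRTC sites, 5 regions were left, with a median CRTC score of 7.00. The score alternatives keep only the higher-scoring sites, so their fewer regions and higher medians follow from that choice. Wider regions had a higher median CRTC score among all regions too. Matching RefSeq genes by symbol alone left 3 of the 79 with a region, since the table uses older names. Case-insensitive symbols added no region. The depth behind a site is unknown, so it limits these values to an unknown extent.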
